A study of Homo sapiens with 4 samples.

Results

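The messenger RNAs of 32 kinetochore and spindle checkpoint genes were compared between DU145 cells carrying SPOP-F133V and wild-type DU145 cells. The 32 genes were chosen by symbol, and each matched exactly 1 of the 60614 gene IDs in the count tables. DU145 is an established human prostate cancer cell line, here grown in medium with serum. SPOP picks the proteins that a CUL3-based ubiquitin ligase marks, and F133V alters the domain that grips them. Each genotype had 2 RNA-seq libraries, replicates 1 and 2, of single 75-base reads. The labels name no treatment or time, and do not say how the F133V cells were made, whether they are 1 clone or a pool, or whether SPOP was added to the wild-type cells. They also do not say whether the replicates were separate cultures, so the spread behind each p-value is that between these libraries and may be technical.

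The kinetochore is the protein assembly that joins a chromosome's centromere to spindle microtubules. An inner layer, the constitutive centromere-associated network, sits on nucleosomes that hold the histone variant CENP-A. An outer layer of KNL1, the Mis12 complex and the Ndc80 complex grips the microtubule. Before attachment, an outermost fibrous corona and the checkpoint proteins gather there, and the checkpoint delays anaphase until every kinetochore is attached. Many of these genes are transcribed mainly in G2 and mitosis, so their mRNA is known to follow how many cells of a culture are dividing.

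The libraries held 35173245 to 39642063 reads in genes, and the smallest count of any of the 32 genes in any library was 137 reads. SPOP itself was at 1171 and 1151 CPM in SPOP-F133V cells, against 844 and 906 CPM in the wild type, a log2 fold change of 0.41 ± 0.0548 (SE; edgeR quasi-likelihood test, BH-adjusted p = 2.70e-06). These counts do not separate mutant from wild-type transcripts, so they do not check the genotype labels. The epithelial markers KRT8, KRT18, KRT19, EPCAM and CDH1 were all present, at a summed level of 2242 and 2440.5 CPM in F133V libraries and 1834.5 and 1833 CPM in wild-type libraries; CPM is the usual depth-scaled read level, here with library sizes scaled by the trimmed mean of M-values (TMM), and values of a genotype are given for replicate 1 and then replicate 2. The 5 markers were each called higher in F133V cells. Of 6 markers of leukocytes, endothelium and fibroblasts, PTPRC, CD3E, PECAM1 and DCN had 0 to 6 reads per library, while VWF had 11 and 14 reads in F133V libraries and 4 and 2 in wild-type libraries, and COL1A1 263 and 266 reads in F133V libraries and 227 and 221 in wild-type libraries. VWF and COL1A1 were both called higher in the unadjusted fit, and the part of other cells in the results was not tested. The libraries differed along the GC content of transcripts: across 17299 tested genes, the log2 fold change and GC content had a Spearman rho of 0.638, and the F133V replicates differed from each other along the same axis (rho 0.581, replicate 2 over replicate 1; wild-type replicates -0.0463). Genes are not independent replicates, so no p is given. Each fold change below is therefore given from the unadjusted fit and from a fit with an offset for transcript GC content and length, called GC-adjusted. That offset also removes any real difference that follows GC content or length. It was fitted to each library, so it takes out replicate differences along these axes too. The fit treats the offset as known, so GC-adjusted SEs and p-values leave out its uncertainty. A smaller GC-adjusted p is therefore not stronger evidence than the unadjusted one.

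F133V cells had less mRNA of most of the 32 genes. In the unadjusted fit 27 of the 32 fell, 1 rose and 4 did not pass (edgeR quasi-likelihood test, Benjamini-Hochberg (BH) adjusted p under 0.05 over all 17539 tested genes). Of all tested genes 54.8% were called, 27.6% lower and 27.2% higher. The median log2 fold change was -0.53 over the 32 genes and 0.022 over all tested genes. In the GC-adjusted fit 21 of the 32 fell, 1 rose and 10 did not pass, against 52.2% called, 24.5% lower and 27.6% higher, among 17299 tested genes. The GC-adjusted median was -0.25 over the 32 genes and 0.018 over all tested genes. Both F133V libraries lay below both wild-type libraries for 27 of the 32 genes, which held for 37.8% of all tested genes, and above them for 2 of the 32, which held for 40.1%. In RNA from whole cultures, fewer cells in mitosis and less of these mRNAs per cell cannot be told apart. All 32 genes passed the filter on low counts.

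**Figure D1:**
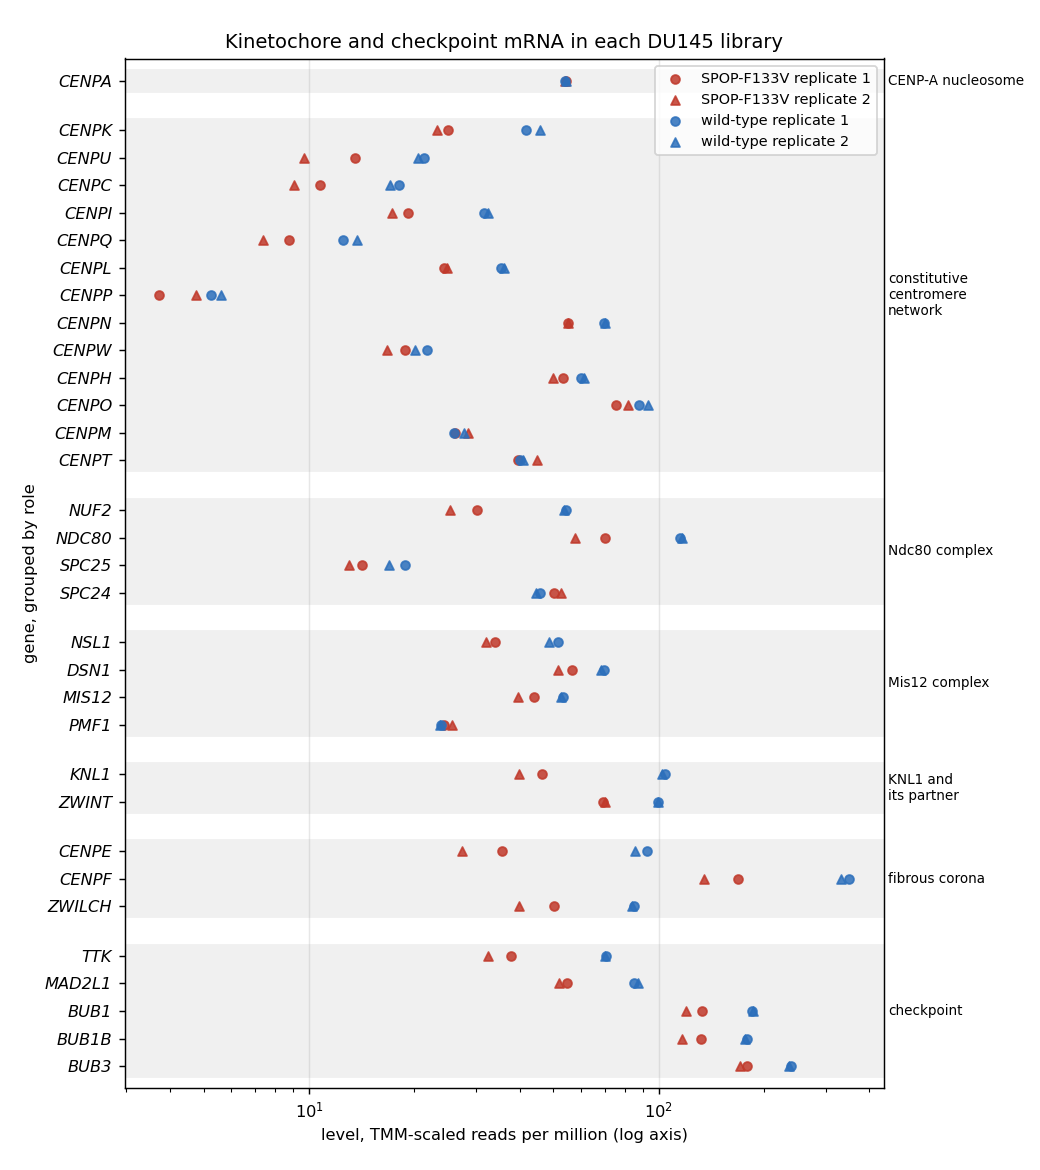
Level of each gene in each library, in TMM-scaled CPM on a log axis, grouped by role; red marks are SPOP-F133V libraries and blue marks wild-type libraries, circles replicate 1 and triangles replicate 2. CENPE, CENPF and KNL1 show the widest gap, with both F133V libraries to the left, while CENPA, CENPM and CENPT overlap between genotypes.

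All 3 fibrous corona genes among the 32 fell. Their median log2 fold change, -1.17 (GC-adjusted -0.65), was the lowest of the 7 role groups in both fits. These groups hold 1 to 13 genes, and the order depends on the grouping: corona genes outside the 32, such as KNTC1 and SPDL1, are not in this median. CENPE (ENSG00000138778.13, chr4:103105806-103198409, minus strand of GRCh38), a kinesin motor that moves chromosomes to the spindle equator, was at 35.7 and 27.5 CPM in SPOP-F133V cells, against 92.7 and 85.6 CPM in the wild type. The genotypes did not overlap, with mean levels of 31.6 ± 5.80 CPM for SPOP-F133V against 89.2 ± 5.01 CPM for the wild type (SD, n = 2 each). The fold of CENPE was 0.354 (GC-adjusted 0.601). Its log2 fold change was -1.497 ± 0.0915, and -0.73 ± 0.0517 GC-adjusted (edgeR quasi-likelihood test, BH-adjusted p = 1.84e-10 and 3.57e-15). CENPF (ENSG00000117724.13, chr1:214603195-214664588, plus strand), a very long coiled-coil protein of the corona, was at 168 and 135 CPM in SPOP-F133V cells, against 351 and 333 CPM in the wild type. Both F133V libraries lay far below both wild-type libraries, with F133V replicate 2 the lower of its pair, and the fold was 0.443 (GC-adjusted 0.637). The log2 fold change of CENPF was -1.17 ± 0.0777, and -0.65 ± 0.0397 GC-adjusted (edgeR quasi-likelihood test, BH-adjusted p = 4.04e-10 and 5.46e-17). ZWILCH, a subunit of the RZZ complex that brings dynein and checkpoint proteins to the kinetochore, was at 50.1 and 39.9 CPM in SPOP-F133V cells, against 84.8 and 83.7 CPM in the wild type. Its log2 fold change was -0.91 ± 0.0839 and -0.31 ± 0.0459 GC-adjusted (edgeR quasi-likelihood test, BH-adjusted p = 2.13e-08 and 3.48e-07).

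KNL1 and ZWINT, which sit together in the outer kinetochore, both fell, with similar values after GC adjustment. KNL1 (ENSG00000137812.20, chr15:40594020-40664342, plus strand), the scaffold on which BUB1 and BUB3 dock, was at 46.5 and 39.96 CPM in SPOP-F133V cells, against 104 and 102 CPM in the wild type. The F133V level was 0.419 times the wild-type level (GC-adjusted 0.668). The log2 fold change of KNL1 was -1.25 ± 0.0744, and -0.58 ± 0.0424 GC-adjusted (edgeR quasi-likelihood test, BH-adjusted p = 1.35e-10 and 8.89e-15). ZWINT, which binds KNL1 and helps to bring in the RZZ complex, was at 69.2 and 70.2 CPM in SPOP-F133V cells, against 99.3 and 99.5 CPM in the wild type. Replicates of ZWINT were close to each other in both genotypes, and its log2 fold change was -0.51 ± 0.0638 (GC-adjusted -0.59 ± 0.0393; edgeR quasi-likelihood test, BH-adjusted p = 1.04e-06 and 6.43e-16). The transcript of KNL1 has a GC content of 38.1% and that of ZWINT 49.1%. The ratio of ZWINT to KNL1 reads was 1.49 and 1.76 in SPOP-F133V cells, against 0.952 and 0.975 in the wild type.

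The 4 subunits of the Ndc80 complex, a rod that binds the microtubule at one end and the inner kinetochore at the other, did not move together. Their promoters are shown with those of CENPE and CENPF, the corona genes with the largest falls, because co-transcribed mitotic genes often share a CCAAT box (bound by NF-Y) and a cell cycle homology region (CHR, TTTGAA). Each sequence is the 250 bases before the RefSeq start on GRCh38.p14, 5′ to 3′ on the gene's strand, with CCAAT and TTTGAA on either strand (ATTGG and TTCAAA in reverse) in capitals. They lie at chr18:2571307-2571556 (plus strand) for NDC80, chr1:163321704-163321953 (plus strand) for NUF2, chr2:168890431-168890680 (minus strand) for SPC25, chr19:11155783-11156032 (minus strand) for SPC24, chr4:103198344-103198593 (minus strand) for CENPE and chr1:214602945-214603194 (plus strand) for CENPF.
NDC80: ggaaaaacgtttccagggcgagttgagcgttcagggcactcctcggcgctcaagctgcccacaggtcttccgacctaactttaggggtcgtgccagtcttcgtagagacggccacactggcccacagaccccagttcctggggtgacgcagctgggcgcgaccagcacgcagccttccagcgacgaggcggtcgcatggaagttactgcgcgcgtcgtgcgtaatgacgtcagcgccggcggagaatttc
NUF2: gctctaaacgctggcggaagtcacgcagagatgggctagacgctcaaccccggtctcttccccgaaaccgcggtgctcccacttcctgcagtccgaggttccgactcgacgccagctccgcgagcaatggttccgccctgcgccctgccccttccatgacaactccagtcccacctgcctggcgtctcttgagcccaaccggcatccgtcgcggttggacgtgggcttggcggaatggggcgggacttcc
SPC25: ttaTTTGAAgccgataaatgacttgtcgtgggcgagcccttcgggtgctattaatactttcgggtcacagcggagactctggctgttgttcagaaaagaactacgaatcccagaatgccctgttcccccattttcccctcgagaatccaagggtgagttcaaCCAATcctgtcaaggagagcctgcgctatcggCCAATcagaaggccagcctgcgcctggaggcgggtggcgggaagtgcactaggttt
SPC24: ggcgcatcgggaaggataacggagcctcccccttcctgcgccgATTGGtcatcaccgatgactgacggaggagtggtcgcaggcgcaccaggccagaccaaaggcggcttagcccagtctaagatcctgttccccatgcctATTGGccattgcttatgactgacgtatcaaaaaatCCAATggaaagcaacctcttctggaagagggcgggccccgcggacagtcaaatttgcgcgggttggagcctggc
CENPE: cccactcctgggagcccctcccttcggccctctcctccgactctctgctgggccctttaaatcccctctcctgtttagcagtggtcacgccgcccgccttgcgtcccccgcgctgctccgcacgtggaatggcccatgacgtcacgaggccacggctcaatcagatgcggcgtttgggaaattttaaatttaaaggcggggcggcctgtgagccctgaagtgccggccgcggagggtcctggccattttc
CENPF: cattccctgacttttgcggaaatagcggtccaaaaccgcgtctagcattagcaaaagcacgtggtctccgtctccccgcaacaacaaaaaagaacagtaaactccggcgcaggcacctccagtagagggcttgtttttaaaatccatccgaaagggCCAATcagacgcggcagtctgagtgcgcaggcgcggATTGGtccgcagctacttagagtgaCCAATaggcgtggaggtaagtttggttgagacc
SPC24 and CENPF each had 3 CCAAT boxes and SPC25 had 2, while NDC80, NUF2 and CENPE had 0 in this window. Of these 6 genes, SPC25 alone had a TTTGAA in the window. It begins 247 bases before the start, upstream of the CCAAT boxes at 88 and 56 bases. Only the exact letters TTTGAA and their reverse were searched for, so variant forms of a CHR were not counted. Promoters were matched for 26 of the 32 genes. CCAAT was present in 16 of the 26 (61.5%) and in 32.01% of all 35116 promoters of this length, and TTTGAA in 5 of the 26 (19.2%) and 13.3% of all. The units differ: a gene of the 26 counted if any of its promoters matched, and 3 genes had 2. The shares of all count each promoter by itself. The median log2 fold change was -0.46 for the 16 genes with CCAAT and -0.70 for the 10 without it (GC-adjusted -0.15 and -0.33). A match describes these letters and does not show binding.

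NDC80 (also called HEC1; ENSG00000080986.13, chr18:2571511-2616635, plus strand) and NUF2 (ENSG00000143228.13, chr1:163266576-163355764, plus strand), which form the microtubule-binding end, fell by similar amounts. NDC80 was at 70.0 and 57.8 CPM in SPOP-F133V cells, against 115 and 116 CPM in the wild type. NUF2 was at 30.2 and 25.3 CPM in SPOP-F133V cells, against 54.2 and 53.5 CPM in the wild type. For both, every F133V library was below every wild-type library and F133V replicate 2 was the lowest of the 4. The log2 fold change of NDC80 was -0.86 ± 0.0767 (GC-adjusted -0.42 ± 0.0418; edgeR quasi-likelihood test, BH-adjusted p = 1.40e-08 and 3.71e-11), and that of NUF2 was -0.95 ± 0.0818 (GC-adjusted -0.45 ± 0.05004; 8.11e-09 and 5.34e-10). SPC25, of the end that anchors to the inner kinetochore, was at 14.1 and 13.0 CPM in SPOP-F133V cells, against 18.8 and 16.95 CPM in the wild type. It was lower in the unadjusted fit (-0.40 ± 0.0902, edgeR quasi-likelihood test, BH-adjusted p = 0.000873) and did not pass after adjustment (0.023 ± 0.0708, 0.813). Leaving out wild-type replicate 1 lost the unadjusted call (-0.32, edgeR adjusted p = 0.0759). SPC24 (ENSG00000161888.11, chr19:11131520-11155808, minus strand), the partner of SPC25, was the only one of the 32 genes called higher in the unadjusted fit. It was at 50.3 and 52.6 CPM in SPOP-F133V cells, against 45.7 and 44.6 CPM in the wild type, a log2 fold change of 0.19 ± 0.0700 (edgeR quasi-likelihood test, BH-adjusted p = 0.0287). That call was not made after GC adjustment (0.0084 ± 0.0455; edgeR adjusted p = 0.894), with DESeq2 (adjusted p = 0.0936), without a filter on low counts (0.0586), with a replicate block (0.0526), or without wild-type replicate 1 or 2 (0.262 and 0.375). With upper-quartile scaling the log2 fold change of SPC24 was 0.30. The NUF2 to NDC80 ratio of reads was 0.432 and 0.438 in SPOP-F133V cells, against 0.471 and 0.460 in the wild type. The SPC24 to NDC80 ratio was 0.718 and 0.909 in SPOP-F133V cells, against 0.398 and 0.383 in the wild type. So the SPC24 to NDC80 ratio was higher in both F133V libraries than in either wild-type library, with more spread between the F133V replicates. The transcript GC content is 53.4% for SPC24, against 38.8% to 40.1% for the other subunits, and its part in these ratios was not tested.

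**Figure D2:**
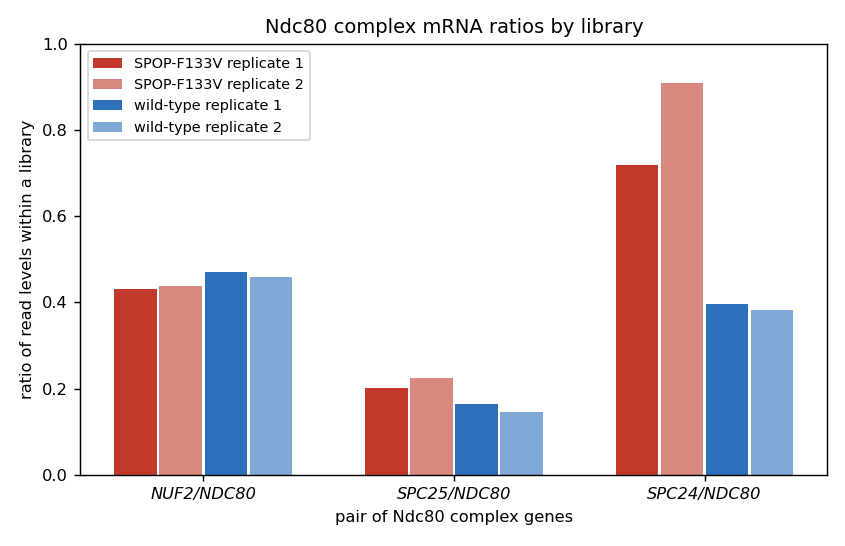
Ratio of TMM-scaled read levels between pairs of Ndc80 complex genes within each library, F133V in red and wild-type in blue. The SPC24 to NDC80 ratio is 0.718 and 0.909 in F133V libraries and 0.398 and 0.383 in wild-type libraries, while NUF2 to NDC80 stays between 0.432 and 0.471.

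The Mis12 complex, which links the inner kinetochore to KNL1 and Ndc80, gave 3 falls of 4 genes in the unadjusted fit and 0 calls of 4 in the GC-adjusted fit. NSL1 was at 34.1 and 32.05 CPM in SPOP-F133V cells, against 51.5 and 48.6 CPM in the wild type. DSN1, whose phosphorylation strengthens the link to CENP-C, was at 56.3 and 51.5 CPM in SPOP-F133V cells, against 69.6 and 68.3 CPM in the wild type. MIS12 itself was at 43.9 and 39.6 CPM in SPOP-F133V cells, against 53.2 and 52.7 CPM in the wild type. All 3 had both F133V libraries below both wild-type libraries, with log2 fold changes of -0.60 ± 0.0736 for NSL1, -0.35 ± 0.0699 for DSN1 and -0.34 ± 0.0732 for MIS12 (edgeR quasi-likelihood test, BH-adjusted p = 9.11e-07, 0.00023 and 0.000502). GC-adjusted, they were -0.045 ± 0.0497, -0.094 ± 0.0427 and 0.016 ± 0.0459 (edgeR adjusted p = 0.469, 0.0619 and 0.799). Without F133V replicate 1, DSN1 was called lower GC-adjusted (-0.14, edgeR adjusted p = 0.00668). PMF1, the fourth subunit, was at 24.4 and 25.6 CPM in SPOP-F133V cells, against 23.9 and 23.7 CPM in the wild type, and passed in neither fit (0.071 ± 0.0780 and -0.096 ± 0.0569 GC-adjusted; edgeR adjusted p = 0.466 and 0.159). Of PMF1's annotated exon bases, 23.3% are shared with the read-through gene PMF1-BGLAP. A p over the threshold does not show that Mis12 subunits were equal between the genotypes: for NSL1, the GC-adjusted SE is 0.0497.

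All 5 checkpoint genes were lower in the unadjusted fit, and 4 of the 5 in the GC-adjusted fit. TTK (ENSG00000112742.10, chr6:80003887-80042527, plus strand), the MPS1 kinase that starts checkpoint signalling, was at 37.8 and 32.5 CPM in SPOP-F133V cells, against 70.7 and 70.3 CPM in the wild type. Its F133V level was 0.499 times the wild-type level (GC-adjusted 0.672). The log2 fold change of TTK was -1.003 ± 0.0768, and -0.57 ± 0.0461 GC-adjusted (edgeR quasi-likelihood test, BH-adjusted p = 2.11e-09 and 1.47e-13). MAD2L1, the MAD2 protein that captures CDC20, was at 54.7 and 51.8 CPM in SPOP-F133V cells, against 84.9 and 87.3 CPM in the wild type and fell by 0.69 on the log2 scale (GC-adjusted -0.15 ± 0.0425), the GC-adjusted call being lost without wild-type replicate 2 (-0.14, edgeR adjusted p = 0.0684). The kinase BUB1 was at 133.1 and 120.0 CPM in SPOP-F133V cells, against 185 and 186 CPM in the wild type. BUB1B, the BUBR1 subunit of the mitotic checkpoint complex, was at 132 and 117 CPM in SPOP-F133V cells, against 179 and 177 CPM in the wild type. The mRNAs of these 2 related proteins had similar log2 fold changes, -0.55 ± 0.0634 for BUB1 and -0.52 ± 0.0654 for BUB1B (GC-adjusted -0.24 ± 0.0352 and -0.26 ± 0.0364). The ratio of BUB1B to BUB1 reads was 0.991 and 0.972 in SPOP-F133V cells, against 0.971 and 0.954 in the wild type. BUB3, the propeller protein that both bind, was at 179 and 171 CPM in SPOP-F133V cells, against 238 and 236 CPM in the wild type, a log2 fold change of -0.44 ± 0.0584 (edgeR quasi-likelihood test, BH-adjusted p = 2.37e-06), and did not pass after adjustment (0.022 ± 0.0347, 0.621).

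In the inner kinetochore, CENPA, which encodes the centromeric histone H3 variant, was level across all 4 libraries, at 54.2 and 53.9 CPM in SPOP-F133V cells, against 54.0 and 54.3 CPM in the wild type. Its log2 fold change was -0.0015 ± 0.0679 (GC-adjusted -0.05 ± 0.0440; edgeR quasi-likelihood test, BH-adjusted p = 0.988 and 0.359). Of the 13 genes of the constitutive network, 11 fell, 0 rose and 2 did not pass in the unadjusted fit, and 10 fell, 1 rose and 2 did not pass in the GC-adjusted fit. CENPC, the bridge from CENP-A nucleosomes to the Mis12 complex, was at 10.8 and 9.04 CPM in SPOP-F133V cells, against 18.1 and 17.04 CPM in the wild type (log2 fold change -0.83 ± 0.0973, GC-adjusted -0.20 ± 0.0763). The GC-adjusted call on CENPC was lost without F133V replicate 2 (-0.18, edgeR adjusted p = 0.0862) and without wild-type replicate 1 (-0.15, 0.228).

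Of the 4 genes of the CENP-H, CENP-I, CENP-K and CENP-M subcomplex, which lies between CENP-C and the outer kinetochore, CENPK and CENPI fell in both fits. CENPK was at 24.9 and 23.3 CPM in SPOP-F133V cells, against 41.8 and 45.8 CPM in the wild type, a log2 fold change of -0.86 ± 0.0783 (GC-adjusted -0.16 ± 0.0546; edgeR quasi-likelihood test, BH-adjusted p = 1.67e-08 and 0.0132). Without wild-type replicate 2 the GC-adjusted call on CENPK was lost (-0.099, edgeR adjusted p = 0.289). The transcript of CENPK has the lowest GC content of the 32, 32.9%. CENPI was at 19.2 and 17.3 CPM in SPOP-F133V cells, against 31.6 and 32.5 CPM in the wild type, a log2 fold change of -0.81 ± 0.0809 (GC-adjusted -0.41 ± 0.0576). CENPH was at 53.3 and 49.9 CPM in SPOP-F133V cells, against 60.0 and 61.1 CPM in the wild type, and fell in the unadjusted fit alone (-0.23 ± 0.0694 and 0.02 ± 0.0438 GC-adjusted; edgeR adjusted p = 0.00805 and 0.735). Its unadjusted call was also lost with upper-quartile scaling (edgeR BH-adjusted p = 0.144) and without wild-type replicate 1 or 2 (0.148 and 0.198). CENPM was at 26.1 and 28.5 CPM in SPOP-F133V cells, against 26.1 and 27.8 CPM in the wild type, with overlapping genotypes, and was called lower in the GC-adjusted fit alone (0.02 ± 0.0797 and -0.30 ± 0.0562 GC-adjusted; edgeR adjusted p = 0.848 and 2.11e-05). CENPM stands at the other end of the range of GC content, at 61.4%.

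CENPL and CENPN, whose proteins form a pair that reads the CENP-A nucleosome, fell in both fits. CENPL was at 24.4 and 24.8 CPM in SPOP-F133V cells, against 35.4 and 36.0 CPM in the wild type, and CENPN at 55.1 and 55.1 CPM in SPOP-F133V cells, against 69.9 and 70.0 CPM in the wild type. Their log2 fold changes were -0.54 ± 0.0749 and -0.34 ± 0.0666, and GC-adjusted -0.32 ± 0.0545 and -0.41 ± 0.0423. The subcomplex of CENP-O, CENP-P, CENP-Q and CENP-U is a docking site of the kinase PLK1. CENPU was at 13.5 and 9.69 CPM in SPOP-F133V cells, against 21.3 and 20.5 CPM in the wild type (-0.85 ± 0.111, GC-adjusted -0.33 ± 0.0765), and CENPO at 75.7 and 81.6 CPM in SPOP-F133V cells, against 87.9 and 93.2 CPM in the wild type (-0.20 ± 0.0671, GC-adjusted -0.35 ± 0.0402). The GC-adjusted value of CENPU was -0.54 without F133V replicate 1 and -0.19 without F133V replicate 2. CENPQ was at 8.75 and 7.37 CPM in SPOP-F133V cells, against 12.5 and 13.7 CPM in the wild type, and fell in the unadjusted fit alone (-0.70 ± 0.104 and -0.028 ± 0.0859 GC-adjusted; edgeR quasi-likelihood test, BH-adjusted p = 9.83e-06 and 0.808). CENPP had the lowest level of the 32 genes, 3.73 and 4.76 CPM in SPOP-F133V cells, against 5.25 and 5.60 CPM in the wild type (-0.35 ± 0.135, GC-adjusted -0.34 ± 0.124). The call on CENPP was lost without F133V replicate 1 (edgeR BH-adjusted p = 0.166), without wild-type replicate 1 or 2 (0.0624 and 0.163), with upper-quartile scaling (0.127) and with DESeq2 (0.135). Its GC-adjusted call was lost without F133V replicate 1 (0.188) and without wild-type replicate 2 (0.0919). Without F133V replicate 2 the values of CENPP were -0.54 unadjusted and -0.53 GC-adjusted. The call on CENPO was lost without wild-type replicate 1 or 2 (0.125 and 0.338) and with upper-quartile scaling (0.256).

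CENPT and CENPW, whose histone-fold proteins pair with each other and give Ndc80 a second anchor, went opposite ways once GC content was adjusted. CENPT was at 39.7 and 44.9 CPM in SPOP-F133V cells, against 40.2 and 40.8 CPM in the wild type, with log2 fold changes of 0.062 ± 0.0761 and -0.20 ± 0.0481 GC-adjusted (edgeR quasi-likelihood test, BH-adjusted p = 0.516 and 0.000723). Without F133V replicate 1 the unadjusted value of CENPT was 0.12 and passed (edgeR adjusted p = 0.0439). CENPW was at 18.8 and 16.7 CPM in SPOP-F133V cells, against 21.7 and 20.1 CPM in the wild type, called lower unadjusted (-0.23 ± 0.0871; edgeR adjusted p = 0.0281) and higher GC-adjusted (0.27 ± 0.0636; edgeR adjusted p = 0.000467). CENPW was the only one of the 32 with a call in opposite directions in the 2 fits. Its unadjusted call was lost with upper-quartile scaling (edgeR BH-adjusted p = 0.23), with DESeq2 (0.0813), and without F133V replicate 2 or wild-type replicate 1 or 2 (0.0607, 0.362 and 0.0983), while the GC-adjusted call was made with each library left out in turn (p from 8.8e-04 to 0.0197). Without F133V replicate 1 the unadjusted value of CENPW was -0.36. The transcript GC content is 59.0% for CENPT and 37.9% for CENPW.

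**Figure D3:**
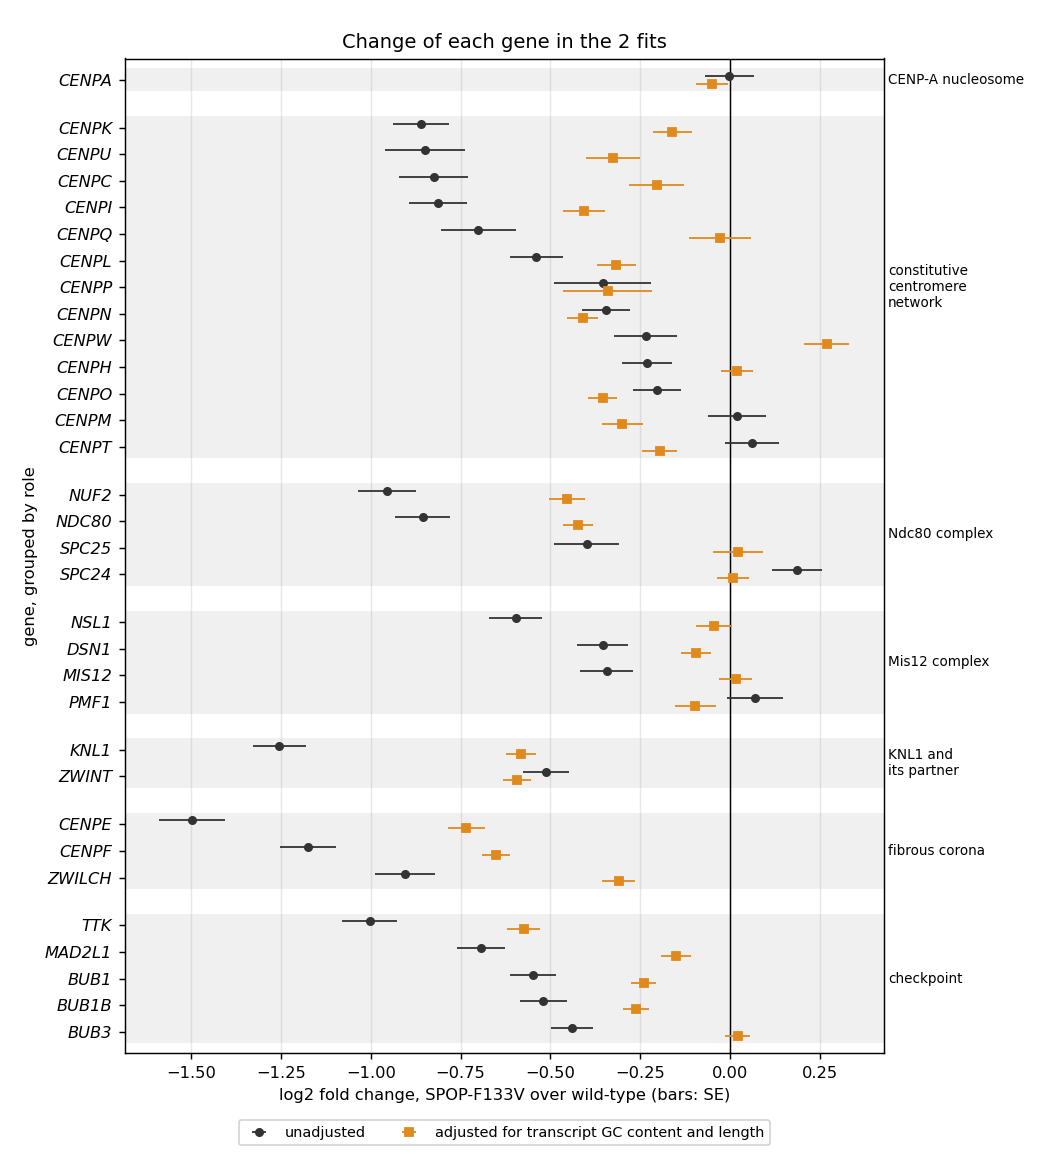
Log2 fold change of each gene, F133V over wild-type, with SE bars, in the unadjusted fit (black circles) and the fit adjusted for transcript GC content and length (orange squares), grouped by role. The corona genes, KNL1, NDC80, NUF2 and TTK stay well left of 0 in both fits, while the 4 Mis12 complex genes lie between -0.096 and 0.016 after adjustment.

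Compared call by call, 19 of the 28 genes called in the unadjusted fit had the same call in the GC-adjusted fit. The other 9 were the 8 lost calls on CENPH, CENPQ, SPC24, SPC25, DSN1, MIS12, NSL1 and BUB3, and CENPW, which turned direction. CENPM and CENPT were called only after adjustment, and CENPA and PMF1 in neither fit. Across the 32 genes the unadjusted log2 fold change and transcript GC content had a Pearson r of 0.746 and a Spearman rho of 0.757. After adjustment these were 0.00595 and -0.0044. The offset is fitted on this same GC content, so a fall towards 0 was built in. All points share the same 4 libraries. The 11 genes under 40% GC had a median log2 fold change of -0.85, and the 6 genes at or over 50% GC one of 0.041. GC-adjusted, these medians were -0.20 and -0.25. The F133V replicates also separated along this axis: replicate 2 was below replicate 1 for 23 of the 32 genes, with a median log2 ratio of -0.12, and -0.23 over the 11 genes under 40% GC. The wild-type replicates had replicate 2 below replicate 1 for 17 of the 32 genes, with a median log2 ratio of -0.0079. Without F133V replicate 2, which lay further from wild-type, 26 of the 32 fell in the unadjusted fit and 20 in the GC-adjusted fit.

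**Figure D4:**
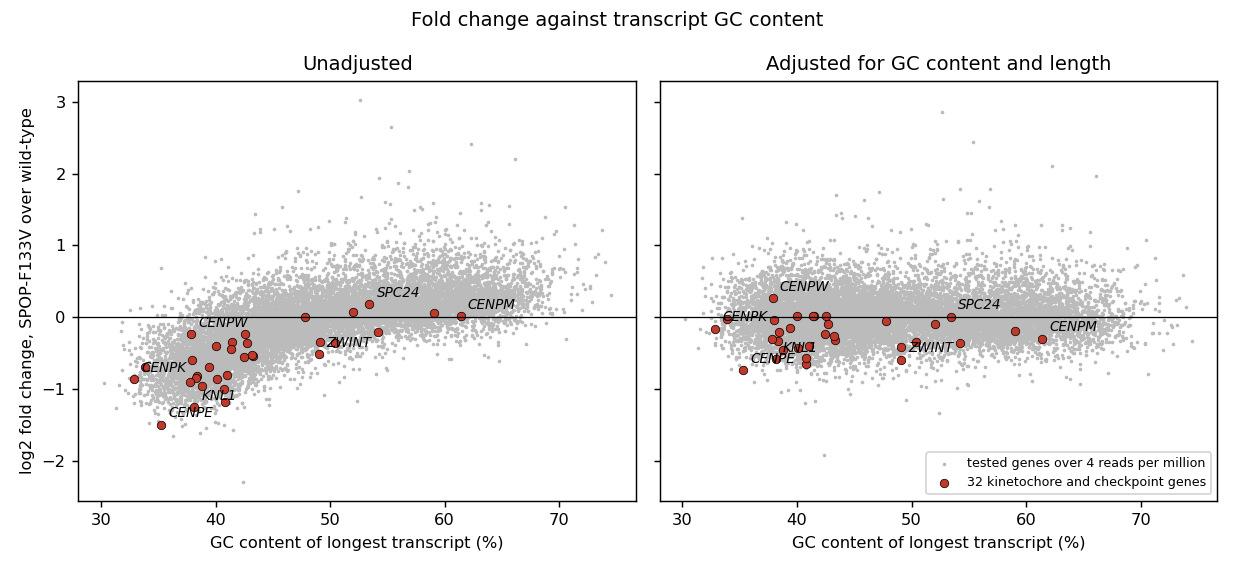
Log2 fold change, F133V over wild-type, against the GC content of the longest transcript, unadjusted (left) and adjusted for GC content and length (right); grey points are tested genes whose average level is over 4 CPM and red points the 32 genes. On the left the red points run along the grey trend, from CENPK and CENPE at low GC content to CENPM at 61.4%, and on the right CENPW lies above 0 and CENPE, KNL1 and ZWINT lie among the lowest.

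Levels can be compared between genes only per length, here CPM per kilobase of annotated exon, averaged over a genotype's 2 libraries. ZWINT and BUB1B were highest on this scale in both genotypes, at 29.3 and 27.8 in F133V cells and 41.8 and 39.8 in wild-type cells. CENPC and CENPP were lowest, at 1.15 and 0.434 in F133V cells and 2.04 and 0.554 in wild-type cells. CENPA ranked 3 of 32 in F133V cells, at 27.3, and 7 in wild-type cells, at 27.3. NDC80 ranked 10 in F133V cells and 3 in wild-type cells, and CENPF 15 in F133V cells and 5 in wild-type cells. Within the Ndc80 complex, SPC24 and NDC80 were nearly level per kilobase in F133V cells (18.1 and 17.8), whereas in wild-type cells SPC24 stood at 15.9 and NDC80 at 32.1. These ranks carry the same GC trend as the fold changes. They also depend on the length used, which counts every annotated exon whether or not these cells use it. That length is 9794 bases for CENPP and 8613 for CENPC.

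Several of the 32 genes overlap other genes, and the sources used here do not say whether counting used strand. The share of annotated exon bases that other genes also cover is 42.7% for CENPP (IPPK and NOL8), 31.4% for CENPO (ADCY3 and PTRHD1), 22.8% for CENPN (CMC2) and 19.6% for CENPT (NUTF2, THAP11 and TSNAXIP1). All of these partners lie on the opposite strand. Reads over several genes were tallied apart, so reads on shared bases may be missing for these 4 genes if counting ignored strand. Their values are therefore less certain. Smaller shares are 11.7% for CENPU (PRIMPOL), 10.9% for ZWILCH (LCTL and RPL4), 10.2% for BUB1B (BUB1B-PAK6, same strand) and 9.53% for MIS12 (DERL2). The share is 0% for CENPE, CENPF, KNL1, NDC80, TTK, BUB1 and ZWINT, and 0.149% for NUF2.

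The rest of the kinetochore and checkpoint machinery was described with 4 more gene lists, 32 genes in all. In the unadjusted fit 20 of these fell, 1 rose and 11 did not pass, with a median log2 fold change of -0.40. In the GC-adjusted fit 26 fell, 1 rose and 5 did not pass, with a median of -0.35. Over all tested genes, 27.6% were called lower and 27.2% higher unadjusted, and 24.5% and 27.6% GC-adjusted. The counts of each list below are to be read beside these shares. Among genes of the inner centromere and CENP-A loading, 4 of 9 fell, 1 rose and 4 did not pass (GC-adjusted 7, 0 and 2). Unadjusted, the share of that list called in either direction was near the 54.8% of all tested genes. ITGB3BP, which encodes CENP-R, was at 16.97 and 15.1 CPM in SPOP-F133V cells, against 23.6 and 22.1 CPM in the wild type (-0.51 ± 0.0864, GC-adjusted -0.25 ± 0.0638). CENPS, a partner of the CENP-T and CENP-W pair, was at 1.39 and 1.13 CPM in SPOP-F133V cells, against 1.96 and 2.27 CPM in the wild type (-0.74 ± 0.198, GC-adjusted -0.93 ± 0.200), with 40 to 81 reads per library. It shares 64.8% of its exon bases with CENPS-CORT and AL139424.1. CENPV was the gene called higher, at 19.97 and 22.3 CPM in SPOP-F133V cells, against 18.9 and 17.7 CPM in the wild type (0.21 ± 0.0856), and did not pass GC-adjusted (-0.026 ± 0.0631, edgeR BH-adjusted p = 0.757); CENPV was named after its value was seen.

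Among other corona and checkpoint genes, 5 of 8 fell and 0 rose (GC-adjusted 6 fell and 1 rose). KNTC1, the ROD subunit that works with ZWILCH, was at 74.3 and 66.2 CPM in SPOP-F133V cells, against 129.5 and 131 CPM in the wild type (-0.89 ± 0.0677, GC-adjusted -0.37 ± 0.0382). SPDL1, the dynein adaptor Spindly of the corona, was at 29.4 and 26.2 CPM in SPOP-F133V cells, against 55.1 and 56.7 CPM in the wild type (-1.01 ± 0.0762, GC-adjusted -0.55 ± 0.0490). ZNF207, a microtubule-associated BUB3 partner, was at 105 and 103 CPM in SPOP-F133V cells, against 150.1 and 149.8 CPM in the wild type. It fell in the unadjusted fit (-0.53 ± 0.0605) and rose in the GC-adjusted fit (0.21 ± 0.0408; edgeR BH-adjusted p = 3.40e-07 and 3.36e-05). Among genes of the Ska complex and microtubule attachment, 8 of 9 fell and 0 rose (GC-adjusted 7 and 0). SKA1, a subunit of the Ska complex that holds on to shrinking microtubules, was at 22.7 and 22.9 CPM in SPOP-F133V cells, against 34.3 and 36.2 CPM in the wild type. Its partner SKA3 was at 18.2 and 17.2 CPM in SPOP-F133V cells, against 32.6 and 32.1 CPM in the wild type. The log2 fold changes of SKA1 and SKA3 were -0.63 ± 0.0764 and -0.87 ± 0.0789 (GC-adjusted -0.40 ± 0.0557 and -0.51 ± 0.0578). The kinesin KIF18A was at 17.2 and 14.2 CPM in SPOP-F133V cells, against 33.4 and 33.8 CPM in the wild type (-1.10 ± 0.0887, GC-adjusted -0.47 ± 0.0598). Among chromosomal passenger and shugoshin genes, 3 of 6 fell and 0 rose, and 6 of 6 fell GC-adjusted. The unadjusted share of that list called in either direction was near the 54.8% of all tested genes. SGO2, a shugoshin that protects centromeric cohesin in mouse meiosis, had the lowest value of that list, at 28.0 and 21.0 CPM in SPOP-F133V cells, against 59.5 and 60.7 CPM in the wild type (-1.29 ± 0.0952, GC-adjusted -0.59 ± 0.0544), followed by SGO1, at 15.04 and 13.5 CPM in SPOP-F133V cells, against 24.02 and 22.4 CPM in the wild type (-0.70 ± 0.0870, GC-adjusted -0.37 ± 0.0655). CDCA8, which encodes the passenger protein borealin, was at 68.2 and 71.7 CPM in SPOP-F133V cells, against 82.5 and 78.5 CPM in the wild type (-0.20 ± 0.0665, GC-adjusted -0.33 ± 0.0410).

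**Figure D5:**
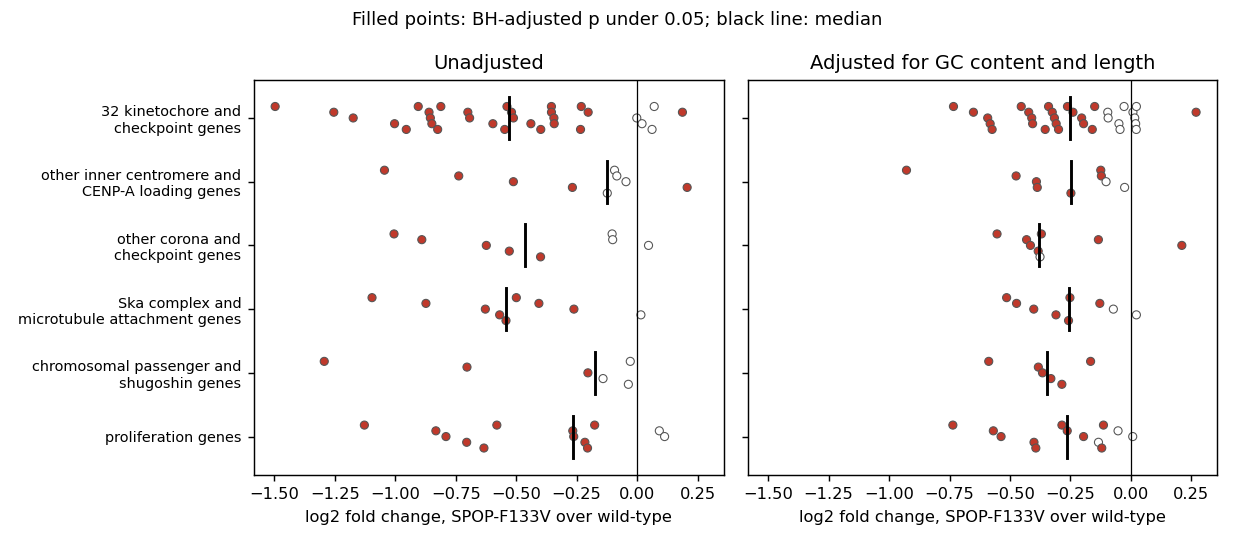
Log2 fold change, F133V over wild-type, of each gene in the 32-gene set, 4 further kinetochore and centromere lists and a proliferation list, unadjusted (left) and adjusted for GC content and length (right); filled points passed an edgeR BH-adjusted p of 0.05 and black lines are medians. The medians lie between -0.54 and -0.12 on the left and between -0.38 and -0.25 on the right.

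Most general proliferation genes were lower as well. Of 13 such genes, 11 fell, 0 rose and 2 did not pass in the unadjusted fit. In the GC-adjusted fit 10 fell, 0 rose and 3 did not pass, and the medians of the 2 fits were -0.27 and -0.26. Of all tested genes, 27.6% were called lower unadjusted and 24.5% GC-adjusted. Their summed level was 2482 and 2399 CPM in F133V libraries and 3498.5 and 3487 CPM in wild-type libraries. MKI67, the Ki-67 antigen of cycling cells, was at 430.2 and 391 CPM in SPOP-F133V cells, against 738 and 724 CPM in the wild type (-0.83 ± 0.0581, GC-adjusted -0.74 ± 0.0350), and TOP2A at 455 and 364 CPM in SPOP-F133V cells, against 899 and 892 CPM in the wild type (-1.13 ± 0.0739, GC-adjusted -0.57 ± 0.0369). CCNB1 and CDK1, the mitotic cyclin and its kinase, and LIN54, a subunit of the DREAM complex, fell in the unadjusted fit alone (-0.22 ± 0.0573, -0.63 ± 0.0740 and -0.71 ± 0.0902, GC-adjusted 0.0075 ± 0.0341, -0.053 ± 0.0374 and -0.13 ± 0.0774). MCM2 and MCM5, of the replicative helicase, were called lower in the GC-adjusted fit alone (0.11 ± 0.0616 and 0.092 ± 0.0626, GC-adjusted -0.12 ± 0.0344 and -0.11 ± 0.0343). These 7 genes were named after their values were seen. The summed level of the 32 kinetochore and checkpoint genes was 1658 and 1528 CPM in F133V libraries and 2448 and 2423 CPM in wild-type libraries. The part of a lower share of dividing cells in the kinetochore result was not tested.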

How the data were processed

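Total RNA from 4 DU145 libraries, 2 per genotype, was analysed. The deposited files hold raw counts of reads by gene, whole numbers without normalization; per the submitters' processing notes, TopHat2 2.0.10 and HTSeq 0.6.0 were used on hg38, and the annotation release and strand setting are not given in these sources. The tallies of reads assigned to no gene were kept apart from the fits: reads over no gene made up 6.12% to 6.53% per library, those over several genes 3.50% to 3.73% and those with several alignments 13.6% to 16.6%.

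Fits used edgeR 4.0.16 under R 4.3.3 (filterByExpr, TMM, quasi-likelihood F-test, two-sided, BH over all tested genes, threshold 0.05). The SE is the log2 fold change over the square root of F. The biological coefficient of variation was 4.64%, and 2.46% with the GC offset. For that offset, the log2 deviation of every library from the mean of the gene (prior count 2) was smoothed on GC content and log2 length of the longest GENCODE 29 transcript (mgcv 1.9.3, basis dimension 8, genes with mean log2 CPM over 2), centred on its median; 98.6% of tested genes had a value. Gene positions and exon lengths are from GENCODE 29 on GRCh38, which need not be the authors' release. Promoters are RefSeq's. The code was tested on simulated counts.

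The 32 genes, the other lists and the GC adjustment were chosen with earlier results of these data known. Of the 32 genes, values per library are given for the 8 largest called changes, those called higher, genes whose call or direction differs between fits and the largest change of each role; other genes are given where they complete a complex, and up to 3 called genes of lowest adjusted p per further list; a gene that this rule names is not reported here. No library was a copy of another: the chi-square per degree of freedom between replicates was 7.68 for F133V and 1.64 for the wild type. The F133V replicates thus differed more from each other than the wild-type replicates did. The fits use a dispersion shared by both genotypes, so each SE averages these unlike spreads. DESeq2 1.42.0, other scalings, no filter, a replicate block and leaving out each library were alternatives.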

Additional observations from a re-analysis of the deposited data

How the results depend on the processing

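The count of genes called lower stayed between 22 and 27 of 32 under every alternative without the GC offset (27 as reported, 23 with upper-quartile scaling, 25 with DESeq2, 27 with no filter on low counts), and between 18 and 21 with it. The count of genes called higher was 1 as reported (SPC24), 0 with DESeq2, 0 with no filter on low counts, 0 with the replicate block, and 0 to 2 with a library left out. The cause was not tested. The median log2 fold change of the 32 genes was -0.53 as reported, -0.42 with upper-quartile scaling, which moved the median of all genes from 0.022 to 0.13 and the split of calls to 6462 higher and 3831 lower (4763 and 4841 as reported), and -0.25 with the GC offset; with a library left out it lay between -0.60 and -0.22. The lone library is then assumed to vary like the other genotype's. All genes called numbered 9604 as reported and 6337 to 10856 with a library left out, with 6384 without wild-type replicate 1 and 6337 without wild-type replicate 2.

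The replicate numbers share no stated source, and same-numbered deviations had a correlation of -0.0274 over all genes, so they were not used as pairs. The replicate block called 27 of 32 lower as before and lost the call on SPC24; with the GC offset it gave a median of -0.25.

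Signs turned as follows, the cause not being tested. With upper-quartile scaling CENPA was 0.11. With the GC offset, and with the replicate block added to it, the values were 0.0197 and 0.0198 for CENPH, -0.30 and -0.30 for CENPM, -0.20 and -0.20 for CENPT, 0.27 and 0.27 for CENPW, 0.023 and 0.023 for SPC25, 0.016 and 0.016 for MIS12, -0.096 and -0.096 for PMF1, and 0.022 and 0.022 for BUB3. With a library left out, and the unadjusted and GC-adjusted fits pooled, CENPA lay between -0.083 and 0.0014, CENPH between -0.31 and 0.044, CENPM between -0.36 and 0.061, CENPQ between -0.86 and 0.033, CENPT between -0.22 and 0.12, CENPW between -0.36 and 0.32, SPC24 between -0.029 and 0.20, SPC25 between -0.49 and 0.099, MIS12 between -0.45 and 0.026, PMF1 between -0.12 and 0.076, and BUB3 between -0.51 and 0.037. In the unadjusted fit alone, leaving out a library turned the sign of CENPA, CENPM and CENPT only. The unadjusted values stayed between -0.31 and -0.18 for CENPH, -0.86 and -0.58 for CENPQ, and -0.36 and -0.15 for CENPW. They stayed between -0.49 and -0.32 for SPC25, -0.45 and -0.27 for MIS12, and -0.51 and -0.41 for BUB3. With RLE scaling all 32 genes had the same direction and side of the threshold.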

Other observations

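MAD1L1, which encodes the MAD1 protein that anchors MAD2 at unattached kinetochores, had 7 and 10 reads in F133V libraries and 9 and 10 reads in wild-type libraries, while its partner MAD2L1 had 1829 to 3332 reads per library. GENCODE 29 lists no other gene over the exons of MAD1L1 (0% shared), and the sources used here do not give the annotation release behind the counts. MAD1L1 is therefore reported as a count for this gene ID and not as the level of its mRNA.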
